A study of Mus musculus with 25 samples.

Results

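Genes that supply NADPH and pentose phosphates were followed in gonadal white adipose tissue, the fat pad around the male reproductive tract. The set listed 8 genes by symbol: G6pdx, Pgd, Pgls, Taldo1, Tkt, Rpia, Idh1 and Me1. Of these, 6 were measured by a transcript cluster (the set of probes for 1 transcript unit) that carried their symbol alone, out of 22180 genes measured in that way. G6pdx had no such cluster among those annotated, and Tkt lay on a cluster shared with a microRNA gene, so neither was analysed here. All mice were heterozygous male ApoE3L.CETP animals, which carry the APOE*3-Leiden and human CETP transgenes, in the controls as in the high-fat groups. From the age of 12 weeks they ate either a high-fat diet (HFD; 60% fat, 20% carbohydrate, 20% protein and 0.25% cholesterol) or a low-fat diet (LFD; 10% fat, 70% carbohydrate and 20% protein). Tissue was taken after 4 weeks (3 HFD and 4 LFD mice), 8 weeks (4 and 4) and 12 weeks (4 and 4), and from 2 chow-fed mice of 12 weeks as the baseline. The labels give ages of 16 and 20 weeks for the 4- and 8-week groups and 34 weeks for the 12-week groups, so groups are called here by weeks on diet. Each of the 25 arrays measured 1 mouse.

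The oxidative branch of the pentose phosphate pathway turns glucose 6-phosphate into ribulose 5-phosphate and reduces NADP+ to NADPH on the way. The non-oxidative branch interconverts the sugar phosphates and returns them to glycolysis or to ribose for nucleotides. Malic enzyme (Me1) and cytosolic isocitrate dehydrogenase (Idh1) reduce NADP+ in the cytosol without that pathway. In adipocytes a large use of NADPH is the building of fatty acids by fatty acid synthase (Fasn), which consumes it at each round of chain elongation. Fasn is no member of the set and served as the partner gene on each array.

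The sequences upstream of the starts of the 3 genes with the most values below and of Fasn are shown because these genes are set against each other on every array. Each run is the 250 bases before the RefSeq start in GRCm38.p6, read 5′ to 3′ on the gene's own strand. Capitals mark matches to GGGCGG, the core of a GC box, or to CCAAT, on either strand (CCGCCC and ATTGG on the strand printed). The windows are chr9:86695915-86696164 (minus strand) for Me1, chr7:141391910-141392159 (plus strand) for Taldo1, chr4:149166706-149166955 (minus strand) for Pgd and chr11:120824548-120824797 (minus strand) for Fasn.
Me1: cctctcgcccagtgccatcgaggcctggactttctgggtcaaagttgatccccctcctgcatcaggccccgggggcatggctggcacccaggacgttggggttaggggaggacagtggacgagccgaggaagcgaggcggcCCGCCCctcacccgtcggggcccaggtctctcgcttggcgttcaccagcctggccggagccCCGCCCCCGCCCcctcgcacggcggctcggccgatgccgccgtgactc
Taldo1: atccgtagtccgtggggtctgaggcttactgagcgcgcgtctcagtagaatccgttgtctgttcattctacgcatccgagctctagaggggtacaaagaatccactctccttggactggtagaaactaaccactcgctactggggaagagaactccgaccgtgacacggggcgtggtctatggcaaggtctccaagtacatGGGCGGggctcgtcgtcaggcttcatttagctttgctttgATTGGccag
Pgd: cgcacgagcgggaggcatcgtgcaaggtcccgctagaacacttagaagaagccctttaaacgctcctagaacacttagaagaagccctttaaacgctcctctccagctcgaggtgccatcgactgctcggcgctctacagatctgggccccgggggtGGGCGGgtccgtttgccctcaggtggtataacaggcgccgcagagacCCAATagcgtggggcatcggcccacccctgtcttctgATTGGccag
Fasn: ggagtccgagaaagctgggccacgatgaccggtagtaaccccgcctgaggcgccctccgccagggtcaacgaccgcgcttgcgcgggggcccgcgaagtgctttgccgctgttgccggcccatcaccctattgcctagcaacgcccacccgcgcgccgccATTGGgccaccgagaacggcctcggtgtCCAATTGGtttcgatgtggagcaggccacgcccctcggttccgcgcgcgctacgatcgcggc

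The Me1 window held 3 GC-box matches, the nearest starting 42 bases before the start, and no CCAAT match. In Taldo1 and Pgd a CCAAT match on the opposite strand began 9 bases before the start, and each window also held 1 GC-box match, 49 bases before the start in Taldo1 and 93 in Pgd. The Fasn window held 3 CCAAT matches, 2 of which overlap on opposite strands, and no GC box. The GC box was present in the windows of 6 of 6 members and in 32.9% of 27025 gene windows of that length. CCAAT was present in 3 of 6 members and in 34.5% of all windows. CACGTG, TCACNCCAC and TGACNNNGC, searched on both strands, had 0 matches among the 6 members, against 6.04%, 1.03% and 10.2% of all windows. These are matches of letters in a short window and say nothing of binding.

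Adipocyte markers were high on nearly every array: the mean of 8 such genes lay between 12.2 and 12.6 (log2) on all diet arrays, with 11.6 and 12.6 on the chow arrays. Transcripts of other organs were present on some arrays. The mean of 20 hepatocyte markers was at least 9.43 on 11 of the 16 arrays at 8 and 12 weeks (3 HFD and 2 LFD at 8 weeks, 3 HFD and 3 LFD at 12 weeks) and at most 7.72 on the other 14. The mean of 11 epididymis markers was 10.2 on HFD array 1 of 4 weeks, 5.66 on LFD array 1 of 4 weeks and 11.9 on chow array 1, against at most 4.08 elsewhere. The mean of 13 macrophage markers was higher on HFD at 8 weeks (8.59 to 9.75, against 7.91 to 8.01 on LFD) and at 12 weeks (8.98 to 9.71, against 7.63 to 8.16 on LFD).

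Expression is given as deposited log2 values, so a difference of 1 is a 2-fold difference, and levels are compared for 1 gene between arrays only. Diet differences are HFD minus LFD, with a standard error from 1 model of all 7 groups (limma). A gene was called when its Benjamini-Hochberg adjusted p over all 22180 genes was under 0.05. In a bulk tissue, fewer cells of a type and less RNA per cell cannot be told apart.

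Me1 showed the largest diet differences of the 6 members at 4, 8 and 12 weeks. It codes for cytosolic malic enzyme, which turns malate into pyruvate and reduces NADP+. At 4 weeks Me1 read 12.12, 12.05 and 12.06 on HFD, against 11.84, 12.24, 13.10 and 12.89 on LFD. The LFD group was wide at that time and its lowest array lay below all HFD arrays. At 8 weeks Me1 read 11.72, 11.70, 11.75 and 11.89 on HFD, against 12.64, 12.63, 12.41 and 13.14 on LFD. At 12 weeks it read 11.96, 11.63, 11.88 and 11.75 on HFD, against 12.54, 12.49, 12.64 and 12.59 on LFD. At both later times every HFD array lay below every LFD array.

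The Me1 difference at 4 weeks was -0.44 ± 0.20 (limma, adjusted p = 0.515), which was not called. At 8 weeks Me1 fell by 0.94 ± 0.19 on the log2 scale, a 1.92-fold lower level on HFD (limma, adjusted p = 0.0103). At 12 weeks it fell by 0.76 ± 0.19, a 1.69-fold lower level (limma, adjusted p = 0.0207). The 8-week call held when any single array was left out, with differences of -1.04 to -0.795. The 12-week call was lost without HFD array 2 or 4 or LFD array 1, 3 or 4 of that time, with differences of -0.77 to -0.70 and adjusted p of 0.0501 to 0.0581, and when arrays were centred on their medians (-0.735, adjusted p = 0.0518). Among arrays with high hepatocyte markers the difference was -0.855 at 8 weeks (3 HFD and 2 LFD arrays) and -0.76 at 12 weeks (3 and 3). Among the remaining arrays it was -1.055 at 8 weeks (1 and 2) and -0.76 at 12 weeks (1 and 1). Averaged over the 3 times Me1 fell by 0.71 ± 0.11 (limma, adjusted p = 0.000185).

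In order of group means, Me1 averaged 11.26 ± 0.04 (SD) on chow, 11.77 ± 0.09 on HFD at 8 weeks, 11.81 ± 0.15 on HFD at 12 weeks, 12.08 ± 0.04 on HFD at 4 weeks, 12.52 ± 0.58 on LFD at 4 weeks, 12.57 ± 0.07 on LFD at 12 weeks and 12.71 ± 0.31 on LFD at 8 weeks. The arrays of HFD at 8 and 12 weeks overlapped, as did those of the 3 LFD groups and those of HFD and LFD at 4 weeks. Both chow arrays lay below all other arrays.

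Taldo1 codes for transaldolase, which moves a 3-carbon unit between sugar phosphates in the non-oxidative branch. At 4 weeks it read 9.46, 9.60 and 9.61 on HFD, against 9.20, 9.54, 9.96 and 9.94 on LFD. At 8 weeks it read 9.42, 9.46, 9.33 and 9.73 on HFD, against 10.10, 10.15, 9.96 and 10.42 on LFD. At 12 weeks it read 9.75, 9.26, 9.59 and 9.58 on HFD, against 9.71, 10.02, 9.86 and 9.89 on LFD. The diets overlapped at 4 weeks, did not overlap at 8 weeks, and at 12 weeks overlapped through 1 HFD array and 1 LFD array. Taldo1 fell by 0.67 ± 0.17 at 8 weeks, a 1.59-fold lower level on HFD (limma, adjusted p = 0.0341). That call was lost without HFD array 1, 2 or 3 or LFD array 1, 2 or 4 of that time (differences of -0.69 to -0.585, adjusted p of 0.0663 to 0.112) and with arrays centred on their medians (-0.72, adjusted p = 0.0517). The 8-week difference was -0.62 among arrays with high hepatocyte markers, where it was not called (limma, adjusted p = 0.106), and -0.77 among the others, with 1 HFD array, where it was not called either (limma, adjusted p = 0.751). The differences at 4 weeks (-0.10 ± 0.18) and 12 weeks (-0.33 ± 0.17, limma, adjusted p = 0.354) were not called, and the average over the 3 times fell by 0.37 ± 0.10 (limma, adjusted p = 0.0173).

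Rpia, ribose 5-phosphate isomerase, links ribulose 5-phosphate to ribose. At 8 weeks it read 7.12, 6.95, 6.91 and 7.19 on HFD, against 7.91, 7.32, 7.48 and 7.62 on LFD, with no overlap. The 8-week difference was -0.54 ± 0.18 (limma, adjusted p = 0.136), and it was called only when arrays were weighted by their fit (-0.59, adjusted p = 0.0361). At 12 weeks the HFD arrays lay close together (7.05, 7.00, 7.00 and 7.06) within the spread of the LFD arrays (6.97, 6.92, 7.33 and 7.70), and the difference was -0.20 ± 0.18. At 4 weeks Rpia read 7.21, 6.97 and 7.67 on HFD, against 6.58, 7.18, 7.15 and 7.41 on LFD, a difference of 0.20 ± 0.20. Neither was called.

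In the oxidative branch, Pgd codes for 6-phosphogluconate dehydrogenase, the second NADPH-forming step. At 4 weeks Pgd read 11.10, 11.02 and 11.22 on HFD, against 10.21, 10.98, 11.32 and 11.30 on LFD. At 8 weeks it read 11.08, 11.11, 11.09 and 11.04 on HFD, against 11.37, 11.42, 11.30 and 12.02 on LFD. At 12 weeks it read 10.85, 11.03, 11.09 and 10.85 on HFD, against 10.81, 10.96, 11.09 and 11.22 on LFD. The diets did not overlap at 8 weeks, when the HFD arrays averaged 11.08 ± 0.03 (SD, n = 4), and they overlapped at the other times. The differences were 0.16 ± 0.20 at 4 weeks, -0.45 ± 0.18 at 8 weeks (limma, adjusted p = 0.2525) and -0.07 ± 0.18 at 12 weeks, and none was called. At 4 weeks the sign rested on LFD array 1, the one with some epididymis transcripts: without it the difference was -0.0867.

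Pgls, 6-phosphogluconolactonase, opens the lactone between the 2 dehydrogenase steps and forms no NADPH itself. It lay between 6.73 and 7.47 on all 25 arrays, the narrowest range of the 6 members. Its diet differences were 0.01 ± 0.13, -0.13 ± 0.12 and -0.16 ± 0.12 at 4, 8 and 12 weeks, with 95% intervals of -0.26 to 0.28, -0.38 to 0.13 and -0.41 to 0.09, and none was called. A second cluster carried the symbol alone and had a lower mean (6.05 against 7.13). With the mean of both clusters the 4-week difference was -0.13.

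Idh1, cytosolic isocitrate dehydrogenase, forms NADPH from isocitrate. At 8 weeks it read 11.00, 11.04, 11.01 and 11.26 on HFD, against 11.37, 11.29, 11.16 and 11.69 on LFD, and the groups overlapped. The differences were -0.15 ± 0.18 at 4 weeks, -0.30 ± 0.17 at 8 weeks (limma, adjusted p = 0.456) and -0.14 ± 0.17 at 12 weeks (limma, adjusted p = 0.780). None was called, and the 95% interval at 8 weeks ran from -0.64 to 0.04.

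The 4 members without a call at 8 and 12 weeks were also split by hepatocyte transcripts. At 8 weeks, on arrays with high markers and on the others, the difference was -0.315 and -0.58 for Pgd, -0.60 and -0.43 for Rpia, -0.23 and -0.425 for Idh1, and -0.07 and -0.225 for Pgls. The 12-week differences were -0.09 and 0 for Pgd, -0.16 and -0.33 for Rpia, -0.15 and -0.12 for Idh1, and -0.09 and -0.36 for Pgls. None of these was called, and the class without high markers held 1 HFD array at each time.

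**Figure D1:**
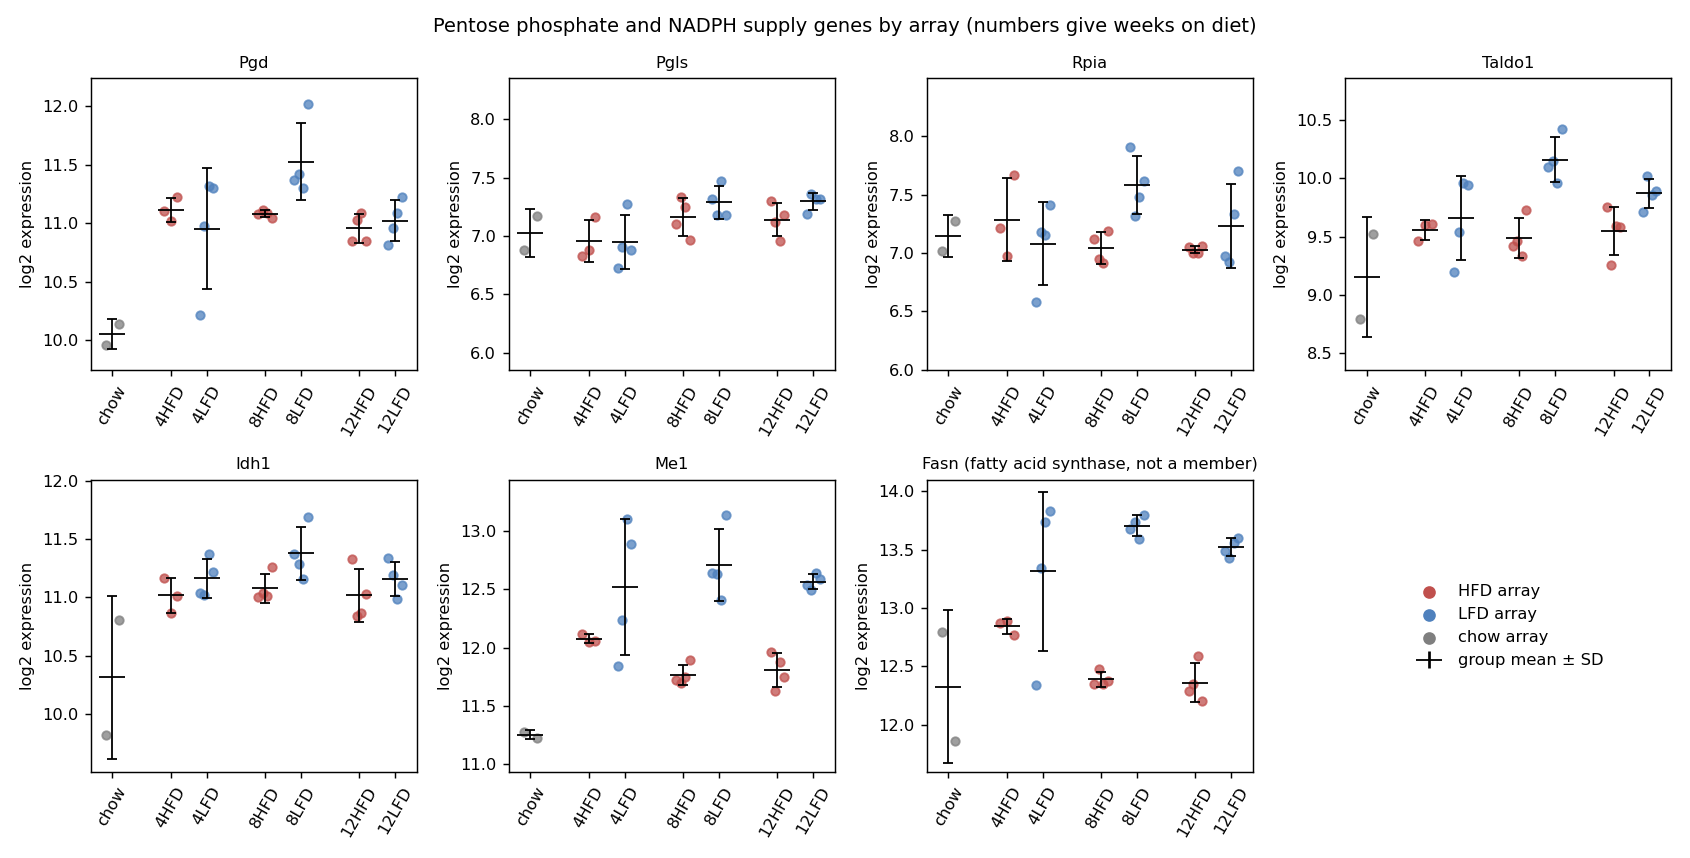
Deposited log2 expression of the 6 measured members and of Fasn on each array, with chow first and then HFD and LFD at 4, 8 and 12 weeks; points are arrays, bars are group means ± SD. At 8 weeks the HFD arrays of Pgd, Taldo1, Rpia, Me1 and Fasn all lie below the LFD arrays, and at 12 weeks this holds for Me1 and Fasn.

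Set side by side, 0 of 6 members were called at 4 weeks, when 0.0225% of all genes were called lower and 0.212% in either direction. At 8 weeks 2 of 6 were called lower (Me1 and Taldo1), against 1.24% of all genes lower and 2.4% in either direction. At 12 weeks 1 of 6 was called lower (Me1), against 1.33% lower and 4.46% in either direction. For the average over the 3 times it was 2 of 6 (Me1 and Taldo1), against 4.44% lower and 10.5% in either direction. With unadjusted p under 0.05 the counts were 1, 4 and 1 of 6 at 4, 8 and 12 weeks, against 9.33%, 13.7% and 16.1% of all genes, so that 1 of 6 at 12 weeks was near the share over all genes. The members' median difference was -0.05 at 4 weeks, -0.49 at 8 weeks and -0.18 at 12 weeks, while the median over all genes was within 0.01 of 0 at each time. HFD arrays lay wholly below LFD arrays for 4 of 6 members at 8 weeks, against 6.42% of all genes, for 1 of 6 at 12 weeks, against 5.08%, and for 0 of 6 at 4 weeks, against 4.41%.

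Whether the diet effect differed between the times was tested in the same model, with an F test over the 3 diet differences. It called 0 of 22180 genes (1199 had an unadjusted p under 0.05). Among the members Rpia had the smallest p in that test (unadjusted p = 0.0381, limma adjusted p = 0.886), and Fasn had an unadjusted p of 0.0399 with the same adjusted value. The smaller differences of Taldo1, Rpia and Pgd at 12 weeks than at 8 weeks were therefore not shown to differ between the times. For Pgd the 12-week difference minus the 8-week difference was 0.38 ± 0.26, and for Taldo1 it was 0.35 ± 0.24.

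**Figure D2:**
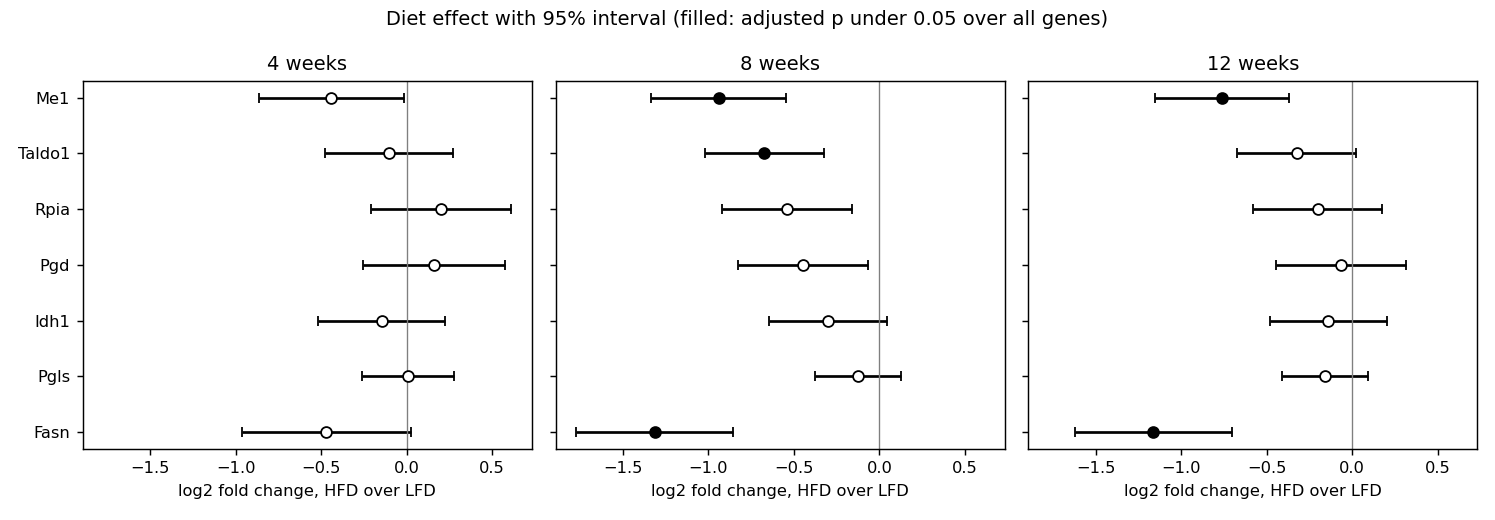
Diet difference (log2, HFD over LFD) of each member and Fasn at 4, 8 and 12 weeks with its 95% interval; filled points have an adjusted p under 0.05 over all genes. Me1 and Taldo1 are filled at 8 weeks and Me1 at 12 weeks, and the interval of Pgls includes 0 at each time.

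Fasn showed larger diet differences than the members at 8 and 12 weeks. At 4 weeks Fasn read 12.87, 12.89 and 12.77 on HFD, against 12.34, 13.34, 13.74 and 13.83 on LFD. At 8 weeks it read 12.35, 12.48, 12.35 and 12.37 on HFD, against 13.68, 13.74, 13.59 and 13.80 on LFD. At 12 weeks it read 12.29, 12.35, 12.59 and 12.20 on HFD, against 13.49, 13.43, 13.56 and 13.60 on LFD. The gap between the diets at both later times was several times the spread within them. Fasn fell by 1.315 ± 0.22 at 8 weeks and by 1.16 ± 0.22 at 12 weeks (limma, adjusted p = 0.00319 and 0.00317). The 4-week difference of -0.47 ± 0.24 was not called (limma, adjusted p = 0.575), and it was called without the 3 arrays highest in epididymis transcripts (-0.81, adjusted p = 0.0183).

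To set each member against Fasn, the array's Fasn value was subtracted from its member value, and HFD was compared with LFD by an exact two-sided permutation test, 18 tests in all. The smallest p these group sizes allow is 0.0286. The test was run for the 6 members only, so the share of all genes that would reach it is not known. At 8 weeks the difference to Fasn was higher on HFD for Pgls, Idh1, Pgd, Rpia and Taldo1, by 1.19, 1.01, 0.87, 0.77 and 0.64, each at that smallest p. These 5 genes thus changed less with diet than Fasn did (exact permutation p adjusted over the 18 tests, 0.0429). Fasn did not overlap between the diets at 8 or 12 weeks, so a gene without a diet difference could reach that p too. The counts are therefore not read as particular to the members. For Me1 the difference to Fasn was 0.375 higher (exact permutation p = 0.0571), which was not past 0.05. The Me1 diet difference was 71.5% of that of Fasn. At 12 weeks all 6 members stood at the smallest p, with Me1 0.40 and Pgd 1.10 higher relative to Fasn, and the Me1 diet difference was 65.4% of that of Fasn. At 4 weeks Pgd alone reached it (0.63), and Me1 differed from Fasn by 0.03 (exact permutation p = 0.914). Without the arrays highest in epididymis transcripts, 2 HFD and 3 LFD arrays remained at 4 weeks, with values of 0.73 for Pgd and 0.12 for Me1, and the smallest p possible was then 0.1.

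Across the LFD arrays Pgd, Me1 and Taldo1 had the highest correlations with Fasn. At 8 and 12 weeks the HFD arrays were low and the LFD arrays high in Fasn with no overlap, while LFD array 1 of 4 weeks (12.34) lay within the HFD range. The relation was therefore computed within each diet, 12 relations in all, with permutation p that are not adjusted. Among the 12 LFD arrays Pearson's r with Fasn was 0.855 for Pgd (permutation p = 0.00011; Spearman's rho 0.863, permutation p = 0.00049) and 0.851 for Me1 (permutation p = 4e-05; rho 0.867, permutation p = 0.00059). Without the 2 arrays farthest from the median of Fasn, LFD arrays 1 and 2 of 4 weeks, r was 0.768 for Pgd and 0.758 for Me1. For Taldo1 r was 0.845 (permutation p = 0.00057; rho 0.679, permutation p = 0.018) and dropped to 0.554 without those 2 arrays, so that it leaned on them. Rpia had r of 0.716 (permutation p = 0.00564; rho 0.595, permutation p = 0.0446), then 0.478, and Idh1 0.500 (permutation p = 0.0962; rho 0.651, permutation p = 0.0245), then 0.499. Pgls changed sign, with r of 0.562 (permutation p = 0.0608, with rho -0.0583 and permutation p = 0.857), then -0.616. LFD array 1 of 4 weeks held some epididymis transcripts. Among the 11 LFD arrays without it, r was 0.762 for Pgd, 0.827 for Me1 and 0.713 for Taldo1 (permutation p = 0.00428, 0.0016 and 0.0131). For Taldo1 rho was 0.582 (permutation p = 0.0654). For Rpia, Idh1 and Pgls r was then 0.496, 0.601 and -0.0802 (permutation p = 0.121, 0.0475 and 0.816).

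Among the 11 HFD arrays Me1 had r of 0.766 with Fasn (permutation p = 0.00802; rho 0.566, permutation p = 0.073), and r of 0.550 without HFD arrays 1 and 2 of 4 weeks. Pgd had r of 0.568 (permutation p = 0.0672; rho 0.558, permutation p = 0.0785) and 0.822 without them. Pgls ran the other way, with r of -0.639 (permutation p = 0.0363; rho -0.624, permutation p = 0.0445), which shrank to -0.201 without them. Taldo1, Rpia and Idh1 had r of 0.0788, 0.370 and -0.228 (permutation p = 0.818, 0.281 and 0.499; rho 0.161, 0.120 and -0.203, permutation p = 0.635, 0.728 and 0.551), and 0.106, 0.647 and -0.303 without those arrays. Without HFD array 1 of 4 weeks, which held epididymis transcripts, r between Me1 and Fasn was 0.685 among 10 HFD arrays (permutation p = 0.0284; rho 0.443, permutation p = 0.202), and 0.0928 when HFD arrays 2 and 3 of 4 weeks were left out too. The relation of Me1 to Fasn on HFD thus rested on the 4-week arrays.

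Within the hepatocyte split, 6 HFD arrays with high markers and 7 LFD arrays without them could be set against Fasn, and the other classes held 5 arrays each. These relations were added after the data were seen, and their p are not adjusted. The 6 HFD arrays were all of 8 or 12 weeks, with Fasn between 12.20 and 12.48, and the 7 LFD arrays included the 4 of 4 weeks. Hepatocyte transcripts and time can therefore not be told apart in this split. On the HFD arrays with high markers Pgd averaged 11.08 at 8 weeks and 10.91 at 12 weeks, and Fasn 12.40 and 12.28. The permutations shuffled the arrays of both times together. On the 6 HFD arrays r was 0.861 for Pgd (exact permutation p = 0.0111; rho 0.882, exact p = 0.0333) and -0.256 for Me1 (exact permutation p = 0.636; rho -0.309, exact p = 0.550), and the other 4 members lay between -0.287 and 0.143. On the 7 LFD arrays r was 0.883 for Pgd, 0.874 for Me1, 0.870 for Taldo1 and 0.903 for Rpia (exact permutation p = 0.00317, 0.00218, 0.00476 and 0.0228; rho 0.847, 0.857, 0.775 and 0.643, exact p = 0.0238, 0.0238, 0.0532 and 0.139). Without LFD arrays 1 and 2 of 4 weeks these were 0.573, 0.804, 0.512 and 0.167. Idh1 and Pgls had r of 0.510 and 0.591 on the same arrays (exact permutation p = 0.193 and 0.135; rho 0.75 and 0.143, exact p = 0.0663 and 0.783), then 0.70 and -0.817.

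A slope on Fasn within the 7 groups was also fitted for every gene, so that group means carry none of it. Me1 rose by 0.62 ± 0.14 and Pgd by 0.57 ± 0.14 for each unit of log2 Fasn (limma, adjusted p = 0.0157 and 0.0246), and the other 4 members were not called. Over all genes 2.81% had a called positive slope. LFD array 1 of 4 weeks, low in Fasn and in most members, bore on these calls: without it 0 members were called and the slopes were 0.47 for Me1 and 0.23 for Pgd. Without that array, chow array 1 and HFD array 1 of 4 weeks together, 0 members were called again, with larger slopes of 1.12 for Me1 and 0.88 for Pgd (limma, adjusted p = 0.9365 and 0.9746). Without LFD array 3 or 4 of 4 weeks 1 member was called in each case. Without chow array 1 or chow array 2 it was 3, in the same fit, because a lone chow array adds nothing to the slope.

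**Figure D3:**
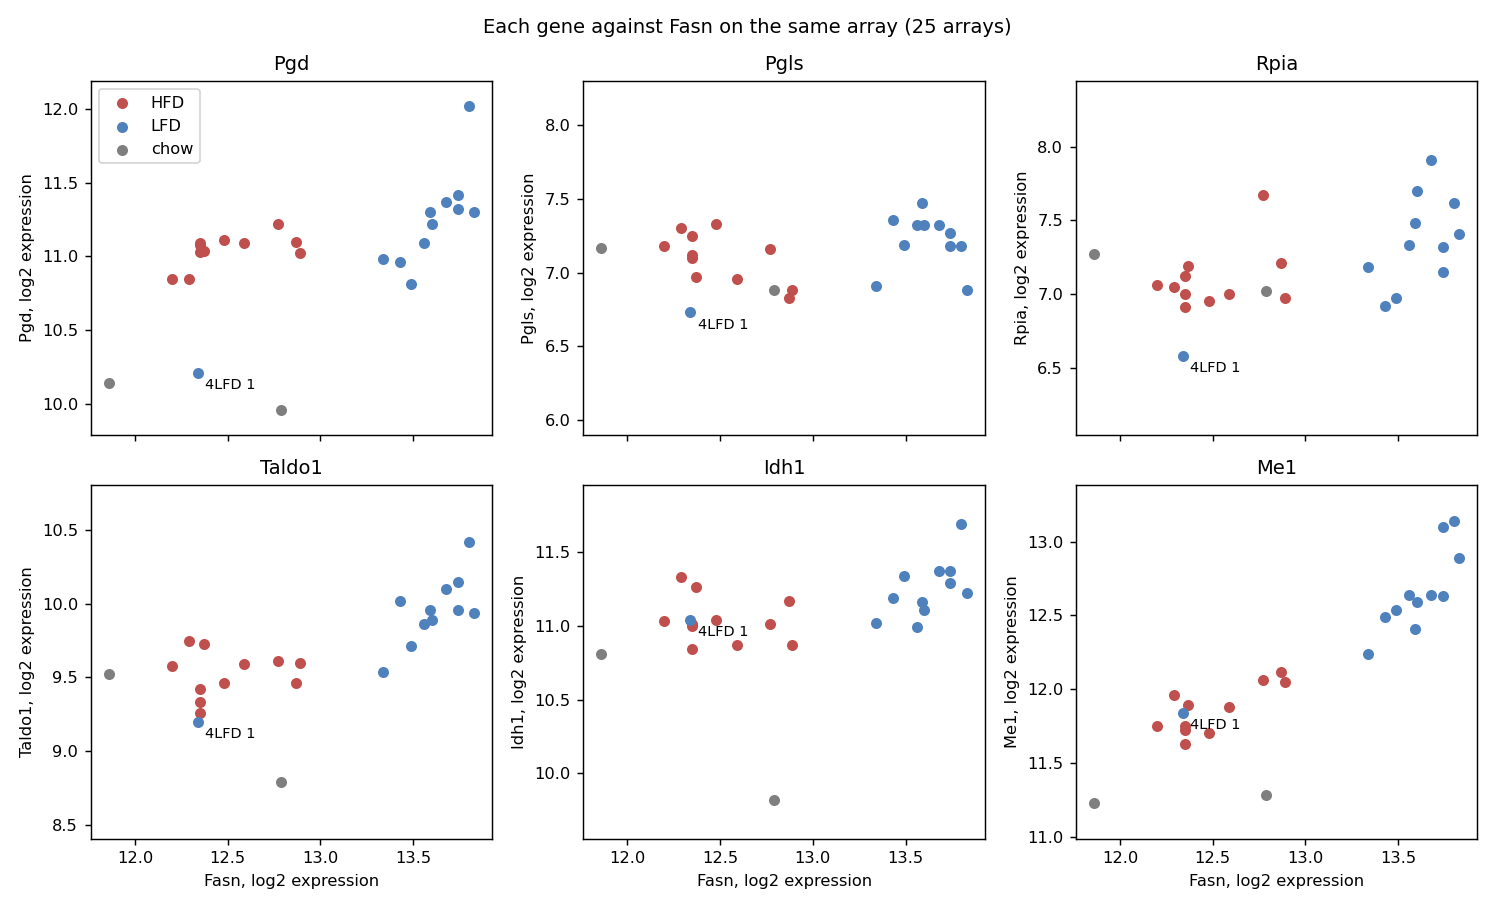
Each member (y axis, log2) against Fasn on the same array (x axis, log2) for 11 HFD, 12 LFD and 2 chow arrays; LFD array 1 of 4 weeks is named. Me1 runs along Fasn within LFD (r = 0.851), and Pgls has r = 0.562 there with a rho of -0.0583.

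The 3 genes most like each member across the 25 arrays were found by Pearson's r among 22179 genes, as a description over arrays that share diets and tissue. For Me1 they were Acss2 (0.958), the cytosolic acetyl-CoA synthetase, Dlat (0.940), a subunit of pyruvate dehydrogenase, and Gbe1 (0.924), the glycogen branching enzyme. Fasn came at rank 7 with 0.909, and at rank 78 with 0.730 once group means were subtracted. With group means subtracted they were Acss2 (0.935), Dlat (0.888) and Slc25a10 (0.884), the mitochondrial dicarboxylate carrier. For Pgd they were Odf3l1, Adap1 and Kpna6 (0.922 to 0.906), and with group means subtracted Slc25a1 (0.906), the mitochondrial citrate carrier, Ints7 and Bin1. For Taldo1 they were Enpep, Uqcrc1 and Dhrs7 (0.905 to 0.902), for Idh1 Fam241a, Csnk2a1 and Ifi27 (0.905 to 0.900), for Rpia Rcor2, Bcar1 and Dusp4 (0.843 to 0.800), and for Pgls Tradd, Thap2 and Klf13 (0.762 to 0.746). Fasn ranked 1213 for Pgd, 315 for Taldo1, 2339 for Idh1, 464 for Rpia and 4747 for Pgls. With group means subtracted it ranked 583 for Pgd, 5110 for Taldo1, 16347 for Idh1, 3213 for Rpia and 9479 for Pgls. Among the members themselves, with group means subtracted, the highest r was 0.834 for Pgd with Me1, followed by 0.734 for Taldo1 with Idh1 and 0.733 for Taldo1 with Me1.

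Among other genes of the pentose phosphate and ribose pathway the calls at 8 and 12 weeks were higher on HFD, while those of Me1 and Taldo1 were lower. Of 10 such genes, 0 were called at 4 weeks and 2 were called higher at 8 and at 12 weeks, against 1.17% and 3.13% of all genes called higher. Their median difference was 0.07, -0.06 and -0.09 at 4, 8 and 12 weeks. Prps1, which makes phosphoribosyl pyrophosphate from ribose 5-phosphate for nucleotide synthesis, ranged from 8.66 to 9.45 on HFD and 7.12 to 7.70 on LFD at 8 weeks. At 12 weeks it ranged from 8.66 to 9.66 on HFD and 7.39 to 7.99 on LFD. No HFD array overlapped with LFD at either time. Prps1 rose by 1.51 ± 0.30 at 8 weeks and by 1.33 ± 0.30 at 12 weeks (limma, adjusted p = 0.00984 and 0.0117), and the calls were lost only without HFD array 1 of that time. Pgm2, which interconverts the phosphates of ribose and deoxyribose, rose by 0.37 ± 0.10 at 8 weeks and by 0.41 ± 0.10 at 12 weeks (limma, adjusted p = 0.0447 and 0.0173). The 8-week Pgm2 call was lost in 18 of 25 fits without 1 array, and the 12-week call in 2. The remaining genes were not called at 4, 8 or 12 weeks, among them H6pd, which runs the oxidative steps in the endoplasmic reticulum (-0.21 ± 0.21 at 8 weeks). For the average over the 3 times Shpk was called lower (-0.43, limma, adjusted p = 0.00397), the direction of Taldo1. Prps1, Prps2 and Pgm2 were called higher (1.13, 0.48 and 0.37, limma, adjusted p = 0.000206, 0.0193 and 0.000188), and the Prps2 call was lost without HFD array 3 of 4 weeks. Of all genes 4.44% were called lower for that average and 10.5% in either direction.

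Of 12 other NADPH sources and NAD kinases, 0 were called at 4, 8 or 12 weeks in limma, against 0.212%, 2.4% and 4.46% of all genes in either direction. Their median differences were -0.10, -0.09 and -0.14. Idh2, the mitochondrial isocitrate dehydrogenase, differed by 0.13 ± 0.14 at 8 weeks and -0.10 ± 0.14 at 12 weeks. Nnt, the mitochondrial transhydrogenase, differed by -0.27 ± 0.13 and -0.22 ± 0.13. Aldh1l1, which forms NADPH in folate metabolism, was called lower for the average over the 3 times (-0.59 ± 0.14, limma, adjusted p = 0.00866), alone of this list. For that average 4.44% of all genes were called lower and 10.5% in either direction, so a lone call in this list was near that share.

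Genes that carry citrate and pyruvate between mitochondria and cytosol, the route that ends in malic enzyme, were next. Of 9 measured members of 10 listed, 0 were called lower at 4 weeks, 6 at 8 weeks and 4 at 12 weeks, with medians of -0.18, -0.82 and -0.51, against 0.0225%, 1.24% and 1.33% of all genes called lower. Acly, ATP citrate lyase, ranged from 10.43 to 10.82 on HFD and 12.34 to 13.45 on LFD at 8 weeks, and it fell by 2.11 ± 0.43 (limma, adjusted p = 0.0122). Slc25a1 ranged from 11.08 to 11.21 on HFD and 12.07 to 12.41 on LFD at 8 weeks and fell by 1.045 ± 0.17 (limma, adjusted p = 0.00251). Neither gene overlapped between diets at 8 weeks. Mpc1, a subunit of the pyruvate carrier, fell by 0.83 ± 0.14, and Pcx, pyruvate carboxylase, by 1.11 ± 0.21 at 8 weeks (limma, adjusted p = 0.00396 and 0.00807). The same 4 genes fell at 12 weeks, Acly by 1.81 ± 0.43, Slc25a1 by 0.875 ± 0.17, Mpc1 by 0.84 ± 0.14 and Pcx by 0.92 ± 0.21 (limma, adjusted p = 0.0164, 0.00361, 0.00165 and 0.0141). These 4 calls held at 8 weeks without any single array, and at 12 weeks that of Acly was lost without LFD array 4 and that of Pcx without HFD array 1.

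NADPH users in lipid synthesis were measured for 10 of 13 genes, of which 2 were called lower at 8 weeks and 1 at 12 weeks (1.24% and 1.33% of all genes), with medians of -0.04, -0.48 and -0.30 at 4, 8 and 12 weeks. Beside Fasn this was Cyp51, lanosterol demethylase of cholesterol synthesis, which fell by 1.33 ± 0.29 at 8 weeks (limma, adjusted p = 0.0171). That call was lost without HFD array 3 or LFD array 1 or 4 of 8 weeks, and at 12 weeks the difference was -0.62 ± 0.29 (limma, adjusted p = 0.298). Of 11 measured genes of glucose uptake and upper glycolysis, Slc2a4, the insulin-responsive glucose transporter, fell by 1.08 ± 0.23 at 8 weeks and by 1.00 ± 0.23 at 12 weeks (limma, adjusted p = 0.0139 and 0.0122). Both calls were lost without HFD array 1 of that time. Hk2, a hexokinase, fell by 0.94 ± 0.20 at 8 weeks (limma, adjusted p = 0.0148), also lost without HFD array 1, and Hk3, the hexokinase of blood cells, rose by 0.95 ± 0.22 at 12 weeks (limma, adjusted p = 0.0135), lost without HFD array 1 or 3. The medians of that list were 0.01, -0.10 and -0.09. Of all genes, 1.24% and 1.33% were called lower at 8 and 12 weeks, and 3.13% were called higher at 12 weeks.

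Of 9 regulators, 2 were called lower at 8 and at 12 weeks (1.24% and 1.33% of all genes), with medians of -0.01, -0.25 and -0.25. Mlxipl, the carbohydrate-response factor ChREBP, fell by 1.10 ± 0.21 and 1.15 ± 0.21 (limma, adjusted p = 0.00668 and 0.00226), and Thrsp, a lipogenic gene that responds to thyroid hormone and carbohydrate, by 0.75 ± 0.19 and 0.95 ± 0.19 (limma, adjusted p = 0.0385 and 0.00456). The 8-week Thrsp call was lost without HFD array 1 or 3 or any LFD array of that time. Srebf1, which codes for a lipogenic transcription factor, differed by -0.70 ± 0.23 and -0.69 ± 0.23 and was not called at either time (limma, adjusted p = 0.119 and 0.101). For the average over the 3 times Srebf1 was called lower (-0.51, limma, adjusted p = 0.0168), as were 4.44% of all genes. That call held without any single array.

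Of 10 antioxidant genes that use NADPH, 1 was called lower at 8 weeks, against 1.24% of all genes. At 12 weeks 1 was called lower and 1 higher, against 1.33% and 3.13% of all genes. Txnrd3, a thioredoxin reductase, fell by 0.72 ± 0.17 at 8 weeks and 0.67 ± 0.17 at 12 weeks (limma, adjusted p = 0.0280 and 0.0242), and Blvra, biliverdin reductase, rose by 0.615 ± 0.15 at 12 weeks (limma, adjusted p = 0.0173). The Txnrd3 calls were lost without any 1 of 7 arrays at 8 weeks and any 1 of 4 at 12 weeks, and the Blvra call without any 1 of 3. The list medians were 0.03, -0.11 and -0.12. Of 8 NRF2 targets, Hmox1, haem oxygenase, rose by 0.895 ± 0.23 at 12 weeks (limma, adjusted p = 0.0275), when 3.13% of all genes were called higher. That call was lost without any 1 of 5 arrays, and the medians were 0.05, 0.10 and 0.005.

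Of 6 measured subunits of NADPH oxidase, the enzyme with which phagocytes turn NADPH into superoxide, 0, 1 and 5 were called higher at 4, 8 and 12 weeks, against 0.189%, 1.17% and 3.13% of all genes. Cybb, its catalytic subunit, ranged from 9.59 to 10.36 on HFD and 8.30 to 8.96 on LFD at 12 weeks, and it rose by 1.34 ± 0.23 (limma, adjusted p = 0.00179). Cyba rose by 0.94 ± 0.23 at 8 weeks and by 1.23 ± 0.23 at 12 weeks (limma, adjusted p = 0.0287 and 0.00249). The 8-week Cyba call was lost without HFD array 1 or any LFD array of that time, while the 12-week calls of Cybb, Cyba, Ncf4 (1.10 ± 0.22) and Ncf1 (1.02 ± 0.21) held without any single array. Macrophage markers were called higher in 0, 8 and 11 of 13 genes at the same times, against 0.189%, 1.17% and 3.13% of all genes (medians 0.30, 0.87 and 1.23), with Itgax up by 1.75 ± 0.33 at 8 weeks and 2.17 ± 0.33 at 12 weeks. Adipocyte markers were called in 0 of 8 genes at each time in limma, against 0.212%, 2.4% and 4.46% of all genes in either direction, with medians of 0.04, -0.09 and -0.02. The part of the macrophage and adipocyte transcripts in the members' differences was not tested.

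**Figure D4:**
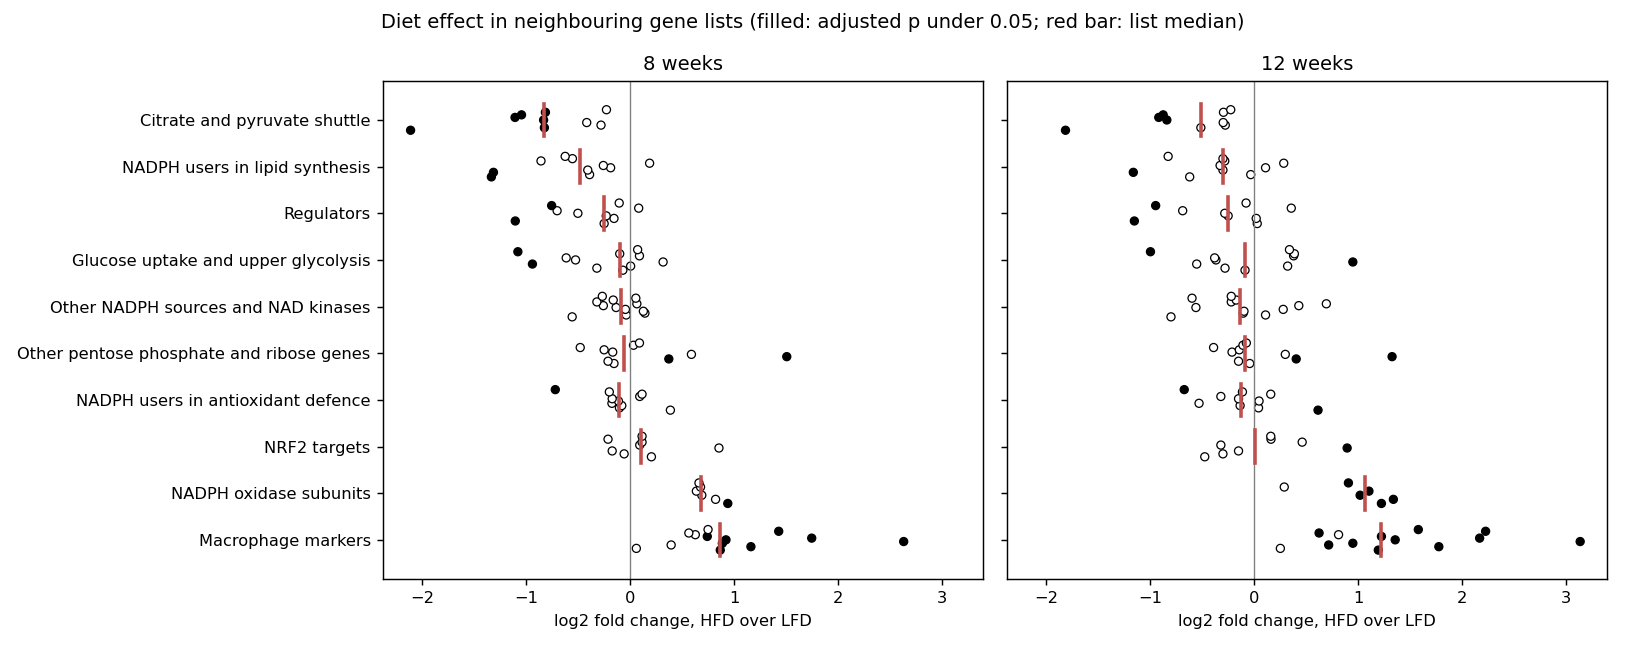
Diet difference (log2, HFD over LFD) of every measured gene in the neighbouring lists at 8 weeks (left) and 12 weeks (right); each point is a gene, filled where the adjusted p over all genes is under 0.05, and the red bar is the list median. The citrate and pyruvate shuttle lies left of 0 with a median of -0.82 at 8 weeks, and the NADPH oxidase subunits lie right of it with a median of 1.06 at 12 weeks.

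Against chow, several members were higher after either diet. The chow mice were 12 weeks old and the diet mice 16, 20 or 34 weeks, so diet and age cannot be told apart in this comparison. On chow arrays 1 and 2 Pgd read 9.96 and 10.14, Idh1 9.82 and 10.81, Taldo1 8.79 and 9.52, and Me1 11.28 and 11.23. Over the 3 times on HFD, Pgd was higher than chow by 1.00 ± 0.20, Idh1 by 0.72 ± 0.18 and Me1 by 0.63 ± 0.21 (limma, adjusted p = 0.00194, 0.00907 and 0.0418), so that 3 of 6 were called higher, against 9.41% of all genes. On LFD the 4 called were Me1 (1.34 ± 0.20), Pgd (1.12 ± 0.20), Idh1 (0.92 ± 0.18) and Taldo1 (0.74 ± 0.18; limma, adjusted p = 0.000621, 0.00189, 0.00369 and 0.0130), against 5.8% of all genes. Both comparisons share the 2 chow arrays. The Me1 call on HFD held in 15 of 25 fits without 1 array, with differences of 0.60 to 0.65, and was lost without either chow array. Chow array 1 held the most epididymis transcripts of all arrays, and without it the counts were 0 on HFD and 1 on LFD (Me1, 1.37 ± 0.28, limma, adjusted p = 0.0248). For Idh1 the HFD difference to chow was then 0.23 ± 0.19, and for Taldo1 the LFD difference was 0.38 ± 0.22. Pgd stood 0.91 ± 0.27 above chow on HFD and 1.03 ± 0.27 on LFD without that array (limma, adjusted p = 0.0688 and 0.0894).

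Within a diet, 0 of 6 members were called between any 2 times. Of all genes, 0.573% were called on HFD between 12 and 4 weeks and 0.0361% between 12 and 8 weeks, and on LFD 0.681% and 0.0676%. On LFD from 4 to 8 weeks 0 of 6 members were called in limma, against 0.636% of all genes in either direction, and 4 had an unadjusted p under 0.05, against 15.5% of all genes. Those were Pgd (0.575 ± 0.18), Rpia (0.50 ± 0.18), Taldo1 (0.50 ± 0.17) and Pgls (0.34 ± 0.12), with limma adjusted p of 0.135 to 0.182. On HFD over the same interval 0 members had an unadjusted p under 0.05, and 0 of 22180 genes were called (1964 with an unadjusted p under 0.05). Pgd on LFD then differed by -0.51 ± 0.18 between 12 and 8 weeks (limma, adjusted p = 0.398).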

How the data were processed

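Gonadal fat RNA of 25 mice was measured on Affymetrix Mouse Gene 2.0 ST arrays. The values were deposited by the authors as log2 expression per transcript cluster. The series text names Transcriptome Analysis Console 4.0.2, and the normalization method is not given in the sources used here. Values ranged from 1.73 to 14.13 and array medians from 5.04 to 5.36. Of 34472 clusters, 23521 had 1 symbol in the platform annotation, 1814 had several and 9137 had none. Genes with several single-symbol clusters (1082 of 22180) took the one with the highest mean.

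A model of 7 group means was fitted with limma 3.58.1 in R 4.3.3, with Benjamini-Hochberg adjustment over 22180 genes and a threshold of 0.05. Fits were tested on simulated data. Permutation tests used NumPy 2.4.6, with ranks from SciPy 1.17.1. They were exact for differences and for correlations within the hepatocyte split, and used 100000 resamples for the other correlations. Each mouse gave 1 array, and the number of arrays limits the precision.

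The members and gene lists were chosen with earlier results of these data known. Text names all members and Fasn, the called genes with the 4 smallest p of each list, and the 3 genes most like each member. H6pd, Idh2, Nnt and Srebf1, and Cyp51 at 12 weeks, were named after their values were seen. Replicate numbers were checked for pairing: 5 of 11 same-numbered pairs had a correlation of deviations over 0.1, with a range of -0.61 to 0.60, so the numbers were not taken to pair the mice.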

Additional observations from a re-analysis of the deposited data

Results flagged for a closer look

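Dixon's test marked 3 of 35 groups of 4 arrays as holding an array far from the others, and chance marks about 1 group in 20. Pgd on LFD array 4 of 8 weeks read 12.02, against 11.30 to 11.42 on the other LFD arrays of that time. Idh1 on HFD array 4 of 8 weeks read 11.26, against 11.00 to 11.04 on the others. Fasn on HFD array 2 of 8 weeks read 12.48, against 12.35 to 12.37 on the others.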

How the results depend on the processing

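Of 2284 combinations of a result and an alternative, 2130 were labelled unchanged. A difference, slope or r was unchanged when it kept its direction and its side of the threshold. A count of members was unchanged when it stayed within 1.5-fold of the reported count, or at 0 where 0 was reported. The combinations include fits without 1 array of a group outside the comparison, which bear on a diet difference only through the shared estimate of the spread. Members called lower at 8 weeks (2 as reported) were 1 with arrays centred on their medians, 0 on arrays without high hepatocyte markers and 1 on arrays with them; at 12 weeks (1) they were 0 in the first and second of these. For the average over times (2) they were 0 on arrays without high hepatocyte markers, a subset with 1 HFD array at 8 and at 12 weeks whose differences stayed as large (Me1 -0.7519, Taldo1 -0.3811), and 1 by ordinary ANOVA at an unadjusted p with a 1.5-fold change. Against chow, members called on HFD (3) were 0 with array weights, 1 with marker means as covariates, 1 without the 3 arrays highest in epididymis markers and 0 without high hepatocyte markers, and on LFD (4) they were 0, 2, 2 and 0. With array weights the differences hardly moved (on HFD and LFD, Pgd 0.9965 and 1.1799, Me1 0.6196 and 1.405, Idh1 0.7148 and 0.9259). Slopes on Fasn called (2) were 0 without the 3 epididymis arrays, with larger slopes (Me1 1.1152, Pgd 0.8808). As alternatives chosen after seeing the data, members that differed from Fasn at 4 weeks (1) were 0 without the epididymis arrays, where no p under 0.1 was possible, and on HFD arrays with high hepatocyte markers r with Fasn turned to -0.2556 for Me1, 0.1428 for Pgls, -0.2809 for Taldo1 and -0.2874 for Rpia. Those HFD arrays include none of 4 weeks, so hepatocyte transcripts and time cannot be told apart there. Leaving out 1 array gave 1 to 2 calls at 8 weeks, 0 to 1 at 12 weeks, 0 to 3 on HFD and 1 to 4 on LFD against chow, and 0 to 3 slopes. With the replicate number as a block, 0, 2 and 1 members were called at 4, 8 and 12 weeks and 2 on average, as without it, and 2 on HFD and 4 on LFD against chow. Over all genes, calls at 8 weeks (533) were 1267 with array weights, 982 with covariates, 313 centred, 1251 without the epididymis arrays, 38 without and 211 with high hepatocyte markers only. At 12 weeks (989) they were 1787 with array weights, 1865 without the epididymis arrays, 0 without and 1800 with high hepatocyte markers only.

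Signs turned for small differences. At 4 weeks Pgls was -0.0036 after quantile normalization, -0.1313 with clusters averaged, -0.0787 with weights and -0.0112 with the replicate block; Pgd was -0.0674 with weights and -0.08 without the epididymis arrays, and Taldo1 0.0097 with covariates. Against chow on HFD, Pgls was -0.0014 after quantile normalization, -0.0875 averaged, -0.0826 with covariates, -0.0625 without the epididymis arrays and -0.0194 without high hepatocyte markers, and Rpia was 0.0292 centred; on LFD Pgls was -0.0109 with covariates. The Pgls slope was -0.0202 after quantile normalization and -0.2209 without the epididymis arrays, and the Idh1 slope 0.018 centred, 0.1507 without them and 0.1343 on diet arrays alone. Without 1 array the ranges were -0.0867 to 0.2833 for Pgd and -0.0925 to 0.1167 for Pgls at 4 weeks, -0.135 to 0.0017 for Pgd at 12 weeks, and on HFD against chow -0.0836 to 0.2064 for Pgls, -0.1522 to 0.0978 for Rpia and -0.2606 to 0.6694 for Fasn. Slopes then ran from -0.578 to 0.1343 for Idh1, -0.2828 to 0.1396 for Pgls, -0.2622 to 0.4858 for Taldo1 and -0.0932 to 0.4529 for Rpia. The cause of these changes was not tested.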
